A study of Mus musculus with 2 samples.

Results

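Hepatokines are proteins that liver cells secrete into the blood and that act on other organs. Transcripts of 9 hepatokine genes, *Fgf21*, *Angptl4*, *Ahsg*, *Fetub*, *Lect2*, *Inhbe*, *Inhbc*, *Gdf15* and *Rbp4*, were read from mRNA sequencing of mouse liver. These genes were picked by name, with earlier results of these data known, and all 9 were found among the 53241 gene symbols of the data. Liver RNA of each genotype, control and iFIRKO, was sequenced as 1 library. The iFIRKO genotype is Adipoq-CreERT2 with Insr flox/flox, in which tamoxifen activates a Cre recombinase that the adiponectin promoter drives in adipocytes and that removes the insulin receptor there. Control mice are labelled WT, whereas the study's methods call them IR flox/flox. Males of both groups were 7 weeks old, were all given tamoxifen (100 mg/kg, on 5 days) and were examined 3 days after the last dose. The study's methods name C57BL/6J wild-type mice among those bought, without giving the background of the sequenced genotypes. The sources used here do not say whether a library came from 1 mouse or several. With 1 library per genotype no difference has a replicate check and no p-value was computed, and fewer cells of a type cannot be told apart from less RNA per cell.

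In this setting the gene for the activin subunit βE, *Inhbe*, stood apart from the other hepatokine genes. Its level was 645.4 normalized reads in control liver against 2832 in iFIRKO liver, a ratio of 4.39 (counting interval 3.89 to 4.96). *Fetub*, the gene for fetuin-B, was the only hepatokine gene more than 1.5-fold lower, with 19376 and 12442 normalized reads. *Angptl4*, *Ahsg*, *Lect2*, *Inhbc*, *Gdf15* and *Rbp4* differed by less than 1.5-fold, and *Fgf21* was too low in both libraries for a call.

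The proteins fall into a few families. FGF21 and GDF15 are stress and nutrient hormones. FGF21 signals to brain and adipose tissue through receptor complexes with KLB, and GDF15 signals to the brain through complexes with GFRAL. Activin subunits of the TGF-β superfamily pair through disulphide bonds and signal through type I and type II serine kinase receptors, and βC and βE are made mainly by hepatocytes. ANGPTL4 inhibits lipoprotein lipase in the capillary bed, fetuin-A (*Ahsg*) and fetuin-B are plasma glycoproteins of the cystatin superfamily, LECT2 is a secreted protein first described as a leukocyte chemotactic factor, and RBP4 carries retinol through the blood bound to transthyretin.

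Promoter stretches of *Inhbe* and *Fetub*, the genes past 1.5-fold, and of their relatives *Inhbc* and *Ahsg* are printed here so that the paired genes can be read side by side, and *Fgf21* is added for its motifs. Each is 30 bases long, from base -40 to base -11 before the RefSeq start on GRCm38.p6, written 5′ to 3′ on the strand of the gene, with the TATA box motif TATAAA in capitals where present. They lie at chr10:127351859-127351888 (minus strand) for *Inhbe*, chr10:127370559-127370588 (minus) for *Inhbc*, chr16:22918342-22918371 (plus) for the upstream start of *Fetub*, chr16:22891975-22892004 (plus) for *Ahsg* and chr7:45615501-45615530 (minus) for *Fgf21*. RefSeq starts differ from the GENCODE gene bounds given below, and the stretches of *Inhbe*, *Fetub* and *Ahsg* lie inside those bounds.
Inhbe: agagggtaggtctgctggttgaccgctagg
Inhbc: gttccacctgaactggcttcatttttcacg
Fetub: tttgcaagaTATAAAagggcagtcagaggg
Ahsg: ccacgcctttacgcaattccttcggcgggc
Fgf21: ggcctgtctgggTATAAAttctggtatttc
*Fetub* and *Fgf21* hold the motif in these stretches, as does *Rbp4* before its downstream start, and *Inhbe*, *Inhbc* and *Ahsg* do not. RefSeq windows from 250 bases before to 50 bases after the start were available for 8 of the 9 genes, all but *Angptl4*, and 15.7% of the 27025 genes with such a window hold TATAAA on either strand. Motifs were searched on both strands, positions count from the RefSeq start that the window belongs to, and a match describes letters and is not a binding site. *Fgf21* also holds the ATF4 composite motif TGATGNAAT, in reverse orientation at -140 to -132 (chr7:45615611-45615640), as 1.08% of genes do.
Fgf21 at the ATF4 motif: agacccccccATTGCATCAtccgtccaggc
Rbp4 at the ATF4 motif: cttctaaagaTGATGAAATgaaagaataaa
The *Rbp4* match lies at -76 to -68 of its upstream start (chr19:38125378-38125407, minus strand), and the capitals mark the motif. The motif CACGTG was found in *Fgf21* at -50 to -45 and in *Gdf15* at -83 to -78 of its downstream start, against 8.09% of genes. GTAAACA, a FOXO motif, was found before the downstream start of *Fetub* and before the upstream start of *Rbp4*, against 4.05% of genes. The nuclear receptor DR1 motif (AGGNCA repeated after a single base) was found in *Gdf15* alone, before its upstream start, against 0.451% of genes. The HNF1 motif (GTTAAT and ATTAAC around a single base) was found in none of the 8 genes, against 0.0111%. No searched motif was found in the windows of *Inhbe*, *Inhbc*, *Lect2* or *Ahsg*.

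**Figure D1:**
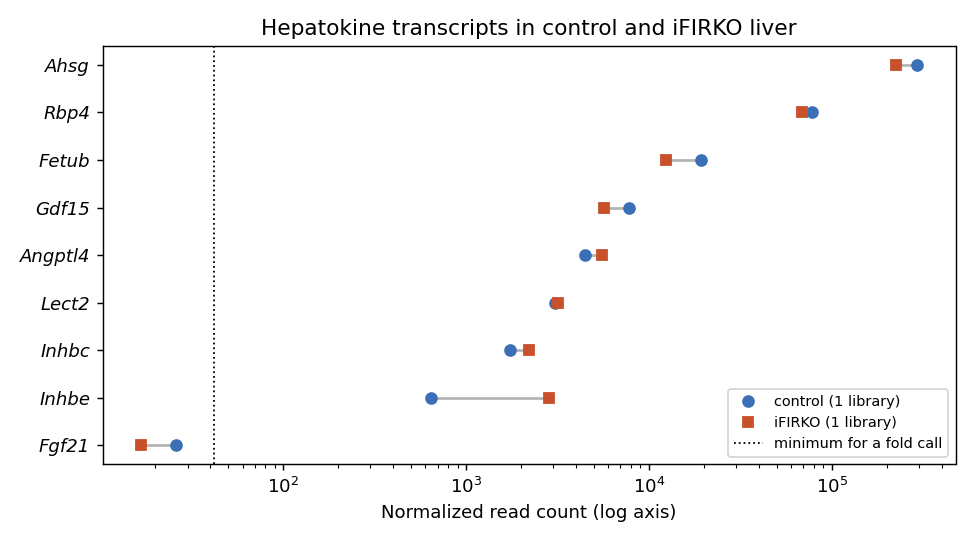
Normalized read count (horizontal log axis) of each hepatokine gene in the control library (circles) and the iFIRKO library (squares), with the minimum for a fold call at 41.8 normalized reads as a dotted line. Levels span from 25.8 for Fgf21 to 292381 for Ahsg in the control library, and Inhbe has the widest gap between the libraries.

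The control library summed to 42003900 normalized reads and the iFIRKO library to 41579630. A gene was compared where it reached 41.8 normalized reads in 1 or both libraries, which 13390 genes did, 8 hepatokine genes among them. The log2 fold change is the iFIRKO over the control value, each with 4.18 normalized reads added, and intervals are 95% Clopper-Pearson intervals of the ratio of estimated read pairs, which cover counting error only. Of all genes compared, 4.46% lay above 1.5-fold in iFIRKO liver and 7.29% were lower by more than that factor. The hepatokine genes gave 1 higher (*Inhbe*) and 1 lower (*Fetub*) of 8, with a median log2 fold change of -0.06 against 0.01 over all genes compared. The counting interval left out 0 for 7 of the 8 and for 39.9% of all genes compared, and it narrows as reads increase. *Insr*, which is deleted in adipocytes and not in liver, had 4246 and 3692 normalized reads and therefore does not check the genotype labels.

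Hepatocyte markers were abundant in both libraries. The 7 of them that were found summed to 5038293 normalized reads in control and 4727552 in iFIRKO, with *Apoa1* as the only marker past 1.5-fold (log2 fold change -0.94). The adipocyte markers *Lep* and *Retn* were listed at 0 in both libraries, and *Adipoq*, *Plin1* and *Cfd* were at 0 in control and at 2.01, 2.01 and 8.05 normalized reads in iFIRKO. This is given because adipocytes also express *Angptl4* and *Rbp4*. The list summed to 487.8 and 589.5, mostly from *Fabp4* (469.9 and 469.0), also made by endothelial cells, and its only gene past 1.5-fold was the lipid droplet gene *Cidec* (17.9 and 108.4). Other cell types moved with the library. The summed Kupffer cell and macrophage markers were lower in iFIRKO (25353 and 16940, 5 of 8 past 1.5-fold), as were leukocyte markers (1610 and 711.3, 5 of 5 compared) and endothelial markers (9547 and 7009, 2 of 7). Erythroid markers were higher (13455 and 27006, 6 of 6), while stellate (12695 and 12746) and cholangiocyte markers (2357 and 2036) had no gene past 1.5-fold. Their part in the differences below was not tested.

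*Inhbe* encodes the βE subunit, whose homodimer is activin E. The gene (ENSMUSG00000047492.5) lies on the minus strand of chromosome 10 of GRCm38, from 127348857 to 127354411, and its annotated transcript has 2 exons and 1050 coding bases. About 325 read pairs in control and 1407 in iFIRKO stand behind its values. Its log2 fold change was 2.13 (interval 1.96 to 2.31), the 18th highest of 13390 genes. It was the only hepatokine gene whose interval lay wholly above 1.5-fold, and under every alternative run it stayed between 2.06 and 2.21.

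*Inhbc*, the βC subunit gene (ENSMUSG00000025405.9), lies directly upstream on the same strand, from 127356322 to 127370431, also with 2 exons and with 1056 coding bases. Its 1738 normalized reads in control compared with 2221 in iFIRKO, and the log2 fold change was 0.35 (interval 0.22 to 0.48). Both subunit genes were thus higher in iFIRKO, but their proportion moved. By reads, *Inhbe* was at 0.371 of *Inhbc* in control and at 1.27 times *Inhbc* in iFIRKO. Per kilobase of annotated exon the ratio of *Inhbe* to *Inhbc* was 0.130 (interval 0.114 to 0.148) in control and 0.446 (0.412 to 0.483) in iFIRKO. GENCODE gives *Inhbe* 5319 exon bases, while the RefSeq gene spans only 2447 bases, a span and not a sum of exons. With that span for *Inhbe* and exon bases for *Inhbc*, the ratios were 0.282 (0.248 to 0.321) and 0.969 (0.895 to 1.05). *Inhbe* was thus below *Inhbc* per kilobase in both libraries with the GENCODE length. With the RefSeq span the iFIRKO levels did not differ beyond counting error. That sets a span against exon bases, so the order of the 2 genes in iFIRKO is not settled. An antisense gene, *Gm47200*, overlaps both subunit genes and was not matched to a symbol here, and no source states whether reads were counted by strand.

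Genes beside *Inhbe* on the chromosome, chosen after its value was seen, were mostly level. *Mars*, a methionyl-tRNA synthetase gene 42.6 kb downstream, had a log2 fold change of 0.14 and *Ddit3*, a stress transcription factor gene, 0.04. *R3hdm2*, upstream of *Inhbc*, was level at 0.00 (interval -0.09 to 0.10). *Arhgap9*, a gene of blood cells, was lower at -0.96 (interval -1.45 to -0.52), as leukocyte markers were. *Ndufa4l2*, with 50.2 and 36.2 normalized reads, was at -0.43 with an interval from -1.42 to 0.48.

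**Figure D2:**
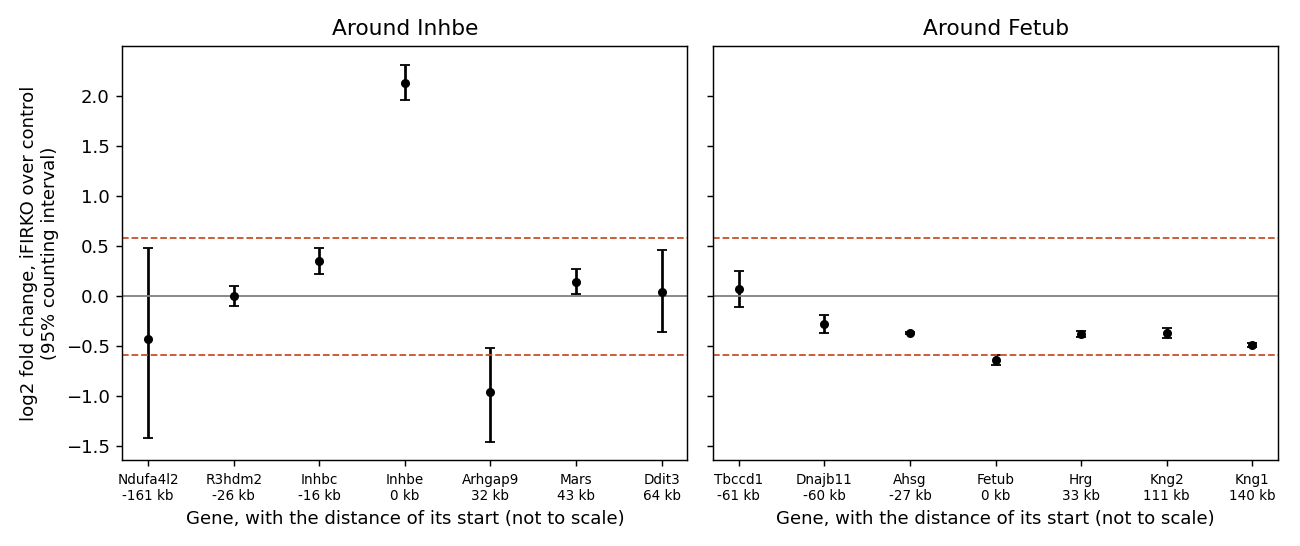
log2 fold change (vertical axis, iFIRKO over control, bars are 95% counting intervals, dashed lines mark 1.5-fold) of the 3 nearest compared protein-coding genes on each side of Inhbe (left) and Fetub (right), in order along the strand of Inhbe or Fetub, with the distance between starts in kilobases (not to scale). Inhbe lies at 2.13 and its neighbours between -0.96 and 0.35, while Ahsg, Fetub, Hrg, Kng2 and Kng1 are all below 0.

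Genes for other subunits, receptors, SMADs and inhibitors of activins were mostly level. Of 13 compared genes in this list of 16, none was more than 1.5-fold higher and 1 was lower, with a median log2 fold change of -0.06. Of all genes compared, 4.46% were higher and 7.29% lower, so these counts do not set the list apart. The lower gene of the list was *Acvr2b*, a type II activin receptor, with only 90.5 and 35.1 normalized reads (log2 fold change -1.27, interval -2.31 to -0.59). The other type II receptor gene *Acvr2a* had 814.6 and 780.7. *Acvr1c*, which encodes ALK7, the type I receptor that adipocytes carry for activin E, was low in liver at 3.97 and 10.1 normalized reads, so no fold is given. The most abundant members of the list per kilobase in the control library were *Smad4* (log2 fold change -0.13), *Acvr2a* (-0.06) and *Acvr1b* (0.11), a common SMAD and 2 receptors. The subunit gene *Inhba* had a log2 fold change of 0.20 (interval 0.02 to 0.39), and *Inhbb* had -0.49 with an interval that includes 0 (-1.13 to 0.11).

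The fetuin genes were both lower in iFIRKO. *Ahsg* (ENSMUSG00000022868.6, chromosome 16, plus strand, 22891277 to 22899449) was the most abundant hepatokine transcript, at 292381 normalized reads in control against 225877 in iFIRKO. Its log2 fold change of -0.37 (interval -0.38 to -0.36) was under 1.5-fold, though 147140 and 112193 read pairs make the counting error small. It made up 0.696% of all normalized reads in control and 0.543% in iFIRKO, and the 9 genes together 0.970% and 0.787%. Fetuin-A binds calcium phosphate in plasma and can inhibit the insulin receptor. *Fetub* (ENSMUSG00000022871.13, same strand, 22918334 to 22939778) was lower by more, with a log2 fold change of -0.64 (interval -0.69 to -0.59) that lies just beyond the 1.5-fold line at -0.58. With hepatocyte markers as the reference for scaling, an alternative added after seeing the data, *Fetub* was at -0.56 and no longer past 1.5-fold. With that scaling 792 genes were higher and 773 lower in place of 597 and 976. The reference was the median marker, *Alb* (log2 fold change -0.08), and the median over all genes compared became 0.09 in place of 0.01. Per kilobase, *Ahsg* exceeded *Fetub* 13.5-fold in control and 16.2-fold in iFIRKO.

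Neighbouring genes of the cystatin superfamily on chromosome 16 were lower as well. *Hrg*, for histidine-rich glycoprotein, had 39738 and 30601 normalized reads (log2 fold change -0.38), *Kng2* 12935 and 10014 (-0.37) and *Kng1*, a kininogen gene that gives rise to bradykinin, 101620 and 72362 (-0.49). None of these 3 passed 1.5-fold. *Kng1* and *Kng2* are close paralogs whose reads could be split by the counting. *Dnajb11* on the other side of *Ahsg* had -0.28 and *Tbccd1* 0.07, so the lower values were not limited to the superfamily. *Cst3*, the cystatin C gene on another chromosome, was level at -0.03 (interval -0.12 to 0.05). Of the 5 compared genes in this list of 8, only *Tlr4*, a receptor reported for fetuin-A, was past 1.5-fold, and it was higher, from 65.1 to 115.8 normalized reads (log2 fold change 0.79, interval 0.19 to 1.495). *Mep1a* and *Astl*, proteases that fetuins inhibit, were listed at 0 in both libraries.

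*Rbp4* (ENSMUSG00000024990.13, chromosome 19, minus strand, 38116629 to 38125281) was the next most abundant hepatokine transcript, at 77974 normalized reads in control against 69319 in iFIRKO. Its log2 fold change was -0.17 (interval -0.19 to -0.15). *Ttr*, the gene for its plasma partner transthyretin, differed in the opposite direction, with 203980 and 249350 normalized reads and a log2 fold change of 0.29 (interval 0.28 to 0.30). Per kilobase, *Ttr* exceeded *Rbp4* 2.96-fold in control and 4.07-fold in iFIRKO. *Rdh10*, a retinol dehydrogenase gene, was at -0.18 (interval -0.34 to -0.01). *Lrat*, which esterifies retinol in stellate cells, had 0.42 (interval 0.17 to 0.68) while the stellate markers had a median of -0.06, and the retinol transporter gene *Stra6* was listed at 0 in both libraries.

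*Angptl4* (ENSMUSG00000002289.16, chromosome 17, minus strand, 33773750 to 33781830) was read 4498 times (normalized) in control against 5535 in iFIRKO, for a log2 fold change of 0.30 (interval 0.22 to 0.38). This was under 1.5-fold. Of the 9 compared genes of its family and of lipase genes, 1 was higher and 1 lower, beside 4.46% and 7.29% of all genes compared. The higher gene was *Angptl8*, a family member made by liver and adipose tissue after feeding, with 1853 and 2806 normalized reads (log2 fold change 0.60, interval 0.48 to 0.72). The lower was *Lpl*, the lipase that ANGPTL4 inhibits, with 1564 and 1029 (log2 fold change -0.60, interval -0.77 to -0.44). *Lpl* is also expressed by macrophages, whose markers were lower in the same library, and that part was not tested. Both genes sit close to the 1.5-fold line and their intervals cross it. Among the most abundant genes of the list per kilobase in the control library, *Lipc*, for hepatic lipase, had a log2 fold change of -0.34 and *Pcsk6*, for a proprotein convertase, 0.12.

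*Gdf15* (ENSMUSG00000038508.7, chromosome 8, minus strand, 70629393 to 70632456) was lower, at 7834 normalized reads in control against 5700 in iFIRKO, with a log2 fold change of -0.46 (interval -0.53 to -0.39), below 1.5-fold in size. Its receptor genes *Gfral*, a gene of the hindbrain, and *Ret* were listed at 0 in both libraries. Stress genes listed alongside *Gdf15* went in both directions. *Atf3* was higher (99.1 and 167.9 normalized reads, log2 fold change 0.74), with an interval from 0.23 to 1.29 that crosses the 1.5-fold line. *Trib3* was lower (177.8 and 78.5, -1.14, interval -1.75 to -0.61), and *Ddit3*, the gene for CHOP, was level at 201.1 and 206.9. The 3 most abundant of the list per kilobase were *Nfe2l2* (log2 fold change 0.43), *Trp53* (-0.07) and *Ddit3* (0.04).

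*Fgf21* (ENSMUSG00000030827.5, chromosome 7, minus strand, 45613886 to 45615490) was low, at 25.8 normalized reads in control against 16.8 in iFIRKO, or about 13 and 8 read pairs. The ratio of 0.650 had an interval from 0.224 to 1.62, so a difference was not detectable at this depth. None of the 9 genes listed as its receptors or regulators was past 1.5-fold, with a median log2 fold change of -0.09. Of all genes compared, 4.46% were higher and 7.29% lower, so a list of 9 is too short for this count to set it apart. The counting interval left out 0 for 7 of the 9, and for 39.9% of all genes compared. Its co-receptor gene *Klb* had 1059 and 997.0 normalized reads. Among the transcription factors *Mlxipl*, which encodes ChREBP, had -0.44, *Creb3l3* 0.37, *Atf4* -0.13 and *Ppara* 0.11. The FGF receptor gene *Fgfr1* had the lowest value of the list at -0.51 (interval -0.90 to -0.14).

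*Lect2* (ENSMUSG00000021539.9, chromosome 13, minus strand, 56542464 to 56548502) did not differ beyond counting error, with 3067 and 3176 normalized reads and a log2 fold change of 0.05 (interval -0.05 to 0.15). Neither of its compared receptor genes passed 1.5-fold. *Met* was at -0.26 (interval -0.36 to -0.15) and *Tie1* at -0.27 with an interval that includes 0 (-0.55 to 0.00), and *Cd209a* was listed at 0.

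**Figure D3:**
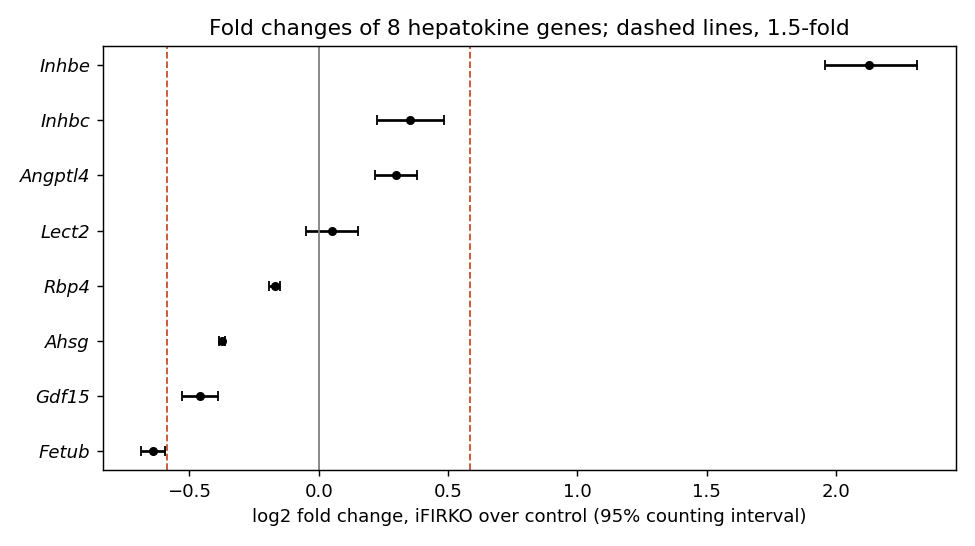
log2 fold change (horizontal axis, iFIRKO over control) of the 8 hepatokine genes at or above the minimum, with 95% counting intervals as bars and dashed lines at 1.5-fold. Inhbe lies at 2.13, Fetub at -0.64, and the other 6 genes between -0.46 and 0.35.

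Per kilobase of annotated exon the control library ran from *Ahsg* (133082 normalized reads per kilobase) through *Rbp4* (58060), *Fetub* (9876), *Gdf15* (4230), *Lect2* (3337), *Angptl4* (1270), *Inhbc* (934.9) and *Inhbe* (121.3) to *Fgf21* (27.2). This placed *Ahsg* at rank 21 and *Fgf21* at rank 11949 of 49684 symbols with an annotated length. In iFIRKO the order was the same but for *Lect2* (3456) and *Gdf15* (3078), whose order was the other way round. The ratio of *Gdf15* to *Lect2* was 1.27 (interval 1.20 to 1.35) in control and 0.891 (0.837 to 0.947) in iFIRKO. These intervals cover counting error and not the choice of exon length (1852 bases for *Gdf15*, 919 for *Lect2*). The ratio was thus lower in iFIRKO beyond counting error, whatever lengths are used for both libraries. Which of the 2 genes is higher within a library rests on those lengths and is not settled. *Inhbe* moved from rank 7294 to rank 2717, and with the RefSeq span in place of exon bases from rank 4561 to rank 1433. *Fetub* moved from rank 190 to rank 308.

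**Figure D4:**
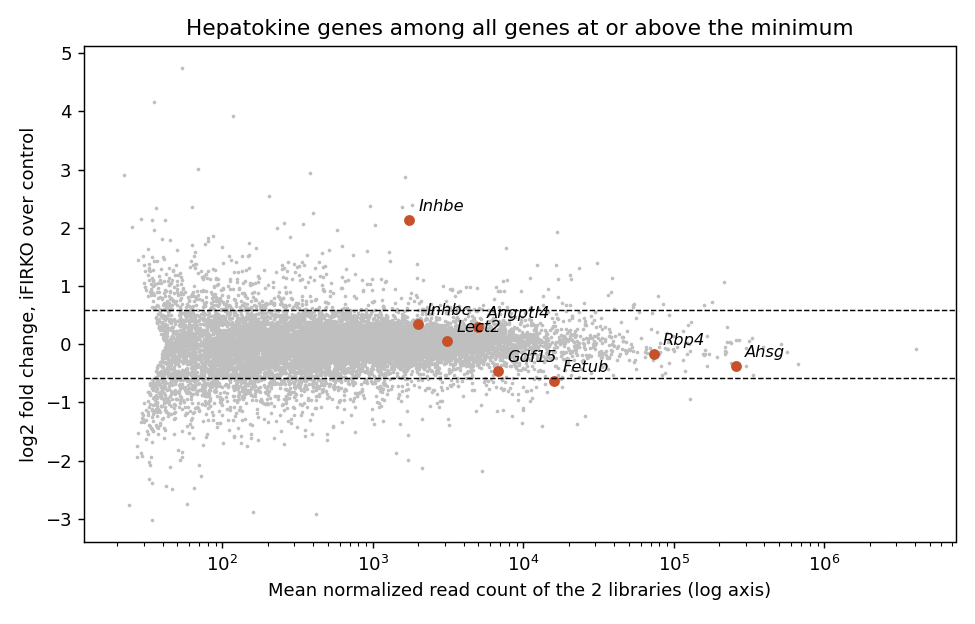
log2 fold change (vertical axis, iFIRKO over control) against the mean normalized read count of both libraries (horizontal log axis) for 13390 genes (grey points), with hepatokine genes named and dashed lines at 1.5-fold. Inhbe lies far above the bulk of genes of like abundance, Fetub lies just under the lower line, and the other named genes lie between the lines.

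Other secreted liver regulators, listed alongside the 9, held the most genes past the line. Of 10 compared, 3 were higher and 1 lower, with a median log2 fold change of 0.04. Of all genes compared, 4.46% were higher and 7.29% lower. The list is short and was chosen with earlier results of these data known, so its counts do not rank it against other genes. *Apoa4*, an apolipoprotein of triglyceride-rich particles, had 3708 and 11666 normalized reads (log2 fold change 1.65, interval 1.58 to 1.73). *Tsku*, for the secreted proteoglycan tsukushi, had 9726 and 17315 (0.83, interval 0.78 to 0.88). *Hamp*, for the iron hormone hepcidin, had 1785 and 2792 (0.64), with an interval from 0.52 to 0.77 that crosses the 1.5-fold line. *Enho*, for adropin, was lower with 455.0 and 219.3 (-1.04, interval -1.39 to -0.72). The most abundant members, *Selenop* (0.08), *Orm1* (-0.30) and *Fgl1* (-0.35), stayed under 1.5-fold. Over all 8 lists of receptors, partners, relatives and regulators, 6 of 58 compared genes were higher and 5 lower, beside the same 4.46% and 7.29%. Their median was -0.07.

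**Figure D5:**
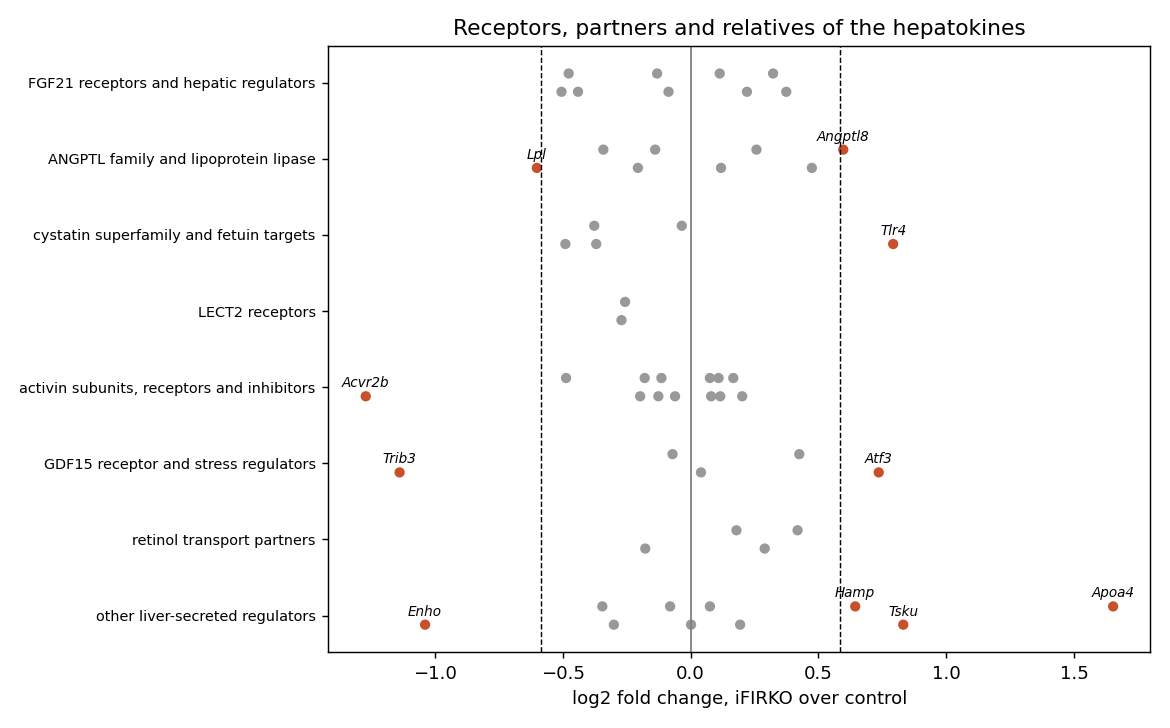
log2 fold change (horizontal axis, iFIRKO over control) of 56 of the 58 compared genes in 8 lists of receptors, partners, relatives and regulators of the hepatokines (rows), with genes past 1.5-fold (dashed lines) coloured and named. Of the plotted genes, 6 lie above and 4 below the lines, Apoa4 highest at 1.65 and Acvr2b lowest at -1.27.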

How the data were processed

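Total RNA from the liver of 1 control and 1 iFIRKO sample was made into TruSeq stranded mRNA libraries and sequenced on a NovaSeq by a service laboratory. Each value the authors deposited is a log2 normalized read count of 1 gene symbol, in which scaled counts of 1 or less appear as 0. The submitters' processing notes name mm10, and the aligner, counter and annotation are not given in the sources used here.

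Values were returned to the linear scale, and the first of 53342 rows was kept for each of 53241 symbols. The commonest low value (1.99 in control, 2.01 in iFIRKO) was taken as 1 read pair. Only 46.7% and 49.6% of values under 40 reads lay within 0.01 of a whole read, so the pair counts are estimates. The Clopper-Pearson intervals treat these estimates, rounded to whole pairs, as binomial counts and are therefore approximate. The fold of 1.5 is the study's own. Annotation came from GENCODE M21 (49684 symbols matched), and promoter windows from RefSeq on GRCm38.p6. Coordinates are GRCm38, the same assembly as mm10.

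The genes and lists were chosen with earlier results of these data known. All 9 hepatokine genes are named, with every gene of a related list past 1.5-fold and the 3 most abundant in the control library. Neighbours on the chromosome and others were chosen after their values were seen. *Rbpr2* and *Tf* were not found under these symbols. The values of 2 genes of these lists are not reported here, though the counts over lists include them. Protein sequences were not used here. The code for calls and intervals was run on simulated whole pair counts with counting error only. That simulation holds no variation between mice and no fractional counts, so it cannot check the calls or intervals of these libraries. Alternatives changed the pseudocount, minimum, scaling, fold and duplicate symbols. Scripts ran under Python 3.11.15 with scipy 1.17.1 for the intervals, pandas 2.3.3 and numpy 2.4.6 for the tables and matplotlib 3.10.9 for the plots.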

Additional observations from a re-analysis of the deposited data

How the results depend on the processing

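*Inhbe* stayed more than 1.5-fold higher under all 11 alternatives, and *Fetub* stayed more than 1.5-fold lower under all but 1, hepatocyte markers as the reference for scaling (added after seeing the data, log2 fold change -0.56). With that scaling, or with 2-fold in place of 1.5-fold as the threshold, 0 hepatokine genes were called lower. Of 88 values of single hepatokine genes, 5 left their counting interval and none changed sign. A fold of 2 left 1 related gene higher and 3 lower, and a minimum of 209.0 normalized reads left 3 lower, in place of 6 and 5. Over all genes, 597 were higher and 976 lower. A fold of 2 gave 209 and 267, that minimum 288 and 440, a pseudocount of 41.8 normalized reads 371 and 576, and no minimum 1956 and 2617. The higher share of all calls was 38.0%, and 50.6% with hepatocyte marker scaling. Apart from the stricter or looser limits themselves, the cause was not tested. No paired analysis was possible because there is a single library of each genotype. Intervals cover counting error only, and at this depth *Fgf21* could not be resolved.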
